A study of Oryza sativa Japonica Group with 36 samples.

Results

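Nitrate that reaches a rice leaf is reduced in 2 steps before its nitrogen can enter amino acids. Nitrate reductase in the cytosol makes nitrite, nitrite reductase in the plastid makes ammonium, and glutamine synthetase with glutamate synthase then fixes the ammonium. Asparagine synthetase moves amide nitrogen from glutamine onto aspartate and so makes asparagine, an amino acid that plants use to carry and store nitrogen. Glutamate dehydrogenase interconverts glutamate with 2-oxoglutarate and ammonium. LHT1 belongs to the lysine/histidine transporter family, whose best known member, in Arabidopsis, takes amino acids into mesophyll and root cells. The levels of 8 genes for these steps were followed, chosen by their identifiers from the 38026 genes of the table. They were the nitrate reductase genes NIA1 (OS08G0468100) and NIA2 (OS08G0468700), the nitrite reductase gene NiR (OS01G0357100), the asparagine synthetase gene AS1 (OS03G0291500), the glutamate dehydrogenase genes GDH1 (OS03G0794500), GDH2 (OS04G0543900), and GDH3 (OS02G0650900), and the amino acid transporter gene LHT1 (OS08G0127100).

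The flag leaf (FL) and the second leaf (SL) of the japonica cultivar Dongjin were profiled by mRNA-sequencing at 6 time points 8 days apart, from 4 to 44 days after heading (DAH). Each of the 12 groups, a leaf at a time point, had 3 replicates, which gave 36 libraries. All plants were of this 1 genotype, grew in a paddy field, and received no treatment, and each replicate pooled the middle parts of several leaves harvested in the same morning hour. The question was how gene expression differed between these leaves and over grain filling. Levels are given as CPM, the reads of a gene relative to a library size that the authors scaled, and they are not divided by gene length, so levels of different genes were not compared. An FL library held 5931903 to 29789199 reads on genes and an SL library 5713546 to 26082278. A level of 3 reads, the floor used here for counting error alone, corresponded to between 0.106 and 0.511 CPM. The Rubisco small subunit genes RbcS2 and RbcS3 were at 539 to 3400.4 CPM in every library, whereas Lhcb1, a light-harvesting protein gene of leaves, ranged from 3.41 to 1339 CPM with its lowest group means at 44 DAH in both leaves. The root gene RCc3 and the glutelin gene GluB1 had no read in any library. The glutelin gene GluA1, a seed storage protein gene, reached 13.9 CPM in replicate 2 of FL and 22.3 CPM in replicate 2 of SL at 20 DAH and stayed at or below 0.540 CPM in the other 34 libraries. In whole leaf tissue, fewer cells of a type and less RNA per cell cannot be told apart.

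Over the course, NIA1 rose in both leaves from a start that was lower in SL, and AS1 fell after 4 DAH in both leaves. NiR rose in SL by 20 DAH and in FL only at 36 and 44 DAH. Its rises in FL, and that at 20 DAH in SL, each depended on single libraries. GDH1 rose in SL from a low start, and GDH2 and LHT1 were higher in FL than in SL at 28 DAH. GDH3 stayed near the floor, with 82 reads in all 36 libraries together, and was not tested. For the other 7 genes, differences were tested with limma on quantile-normalized log2(CPM + 1) values, and a gene was called at a Benjamini-Hochberg adjusted p below 0.05 over the 22057 genes tested. A difference is given in these log2 units with its standard error (SE). Replicates were separate samples taken at the same time, and the p-values measure only the spread between them.

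**Figure D1:**
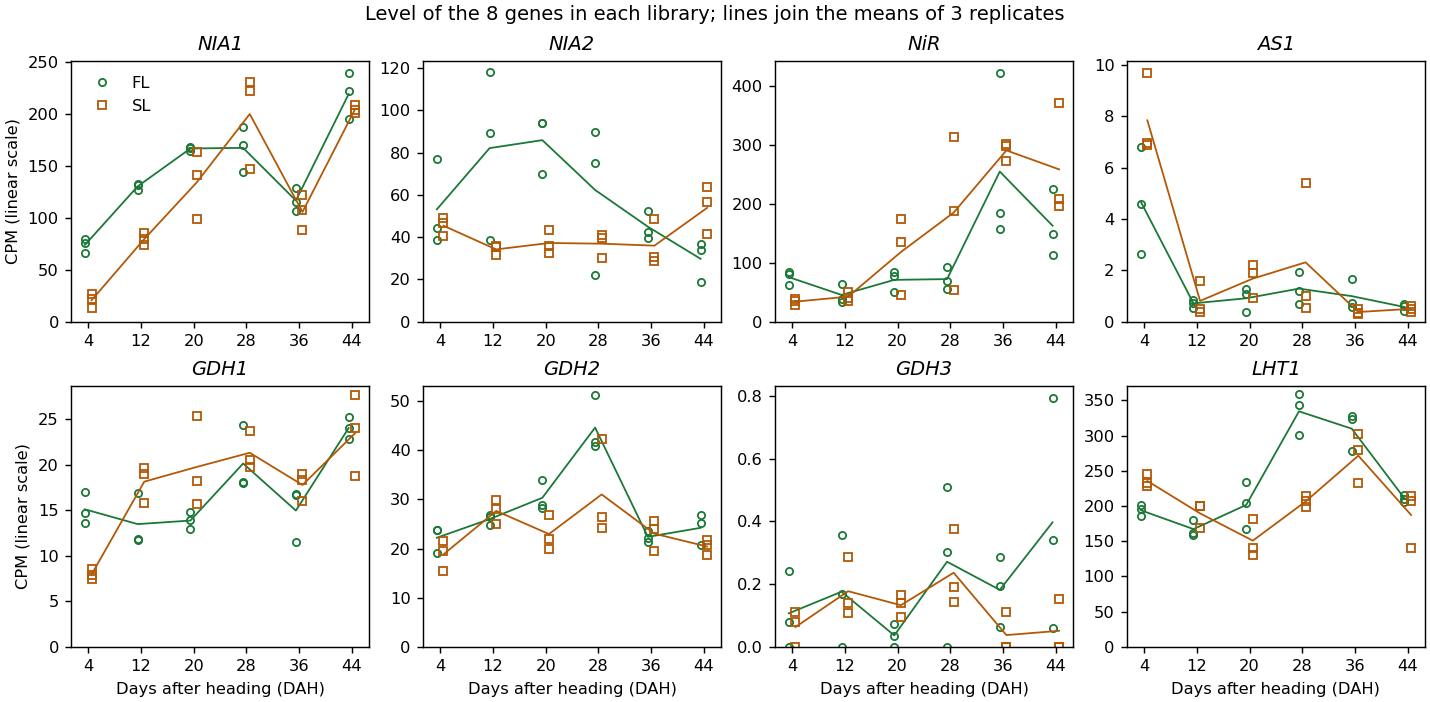
Level of each of the 8 genes in CPM (linear axis, each panel with its own range from 0) against days after heading, with 1 symbol per library, circles for FL and squares for SL, and lines through the means of 3 replicates. NIA1 started at 66.4 to 79.7 CPM in FL and at 13.6 to 26.7 CPM in SL, and GDH3 did not exceed 0.791 CPM in any library.

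Between the leaves, 3 of the 7 tested genes were called at 4 DAH, where 14.1% of all genes tested were called, 1 at 12 DAH (13.5% of all), 3 at 20 DAH (30.4%), and 2 at 28 DAH (23.7%). By limma, edgeR, and DESeq2, 0 of the 7 were called at 36 DAH (10.9% of all by limma) and at 44 DAH (3.8%), and the count at an unadjusted p under 0.05 was 0 at 36 DAH and 1, NIA2, at 44 DAH. Averaged over the 6 time points, NIA1, NIA2, and GDH2 were higher in FL and no member was lower (48.8% of all genes called, in either direction). Levels changed among the time points for 7 of 7 in FL (78.9% of all) and for 6 of 7, all but NIA2, in SL (77.8%). The course differed between FL and SL for 4 of 7, namely NIA1, NIA2, GDH1, and LHT1 (20.2% of all). The counts within each leaf were therefore close to what was common among all genes. With only 7 genes, they are given as a description.

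**Figure D2:**
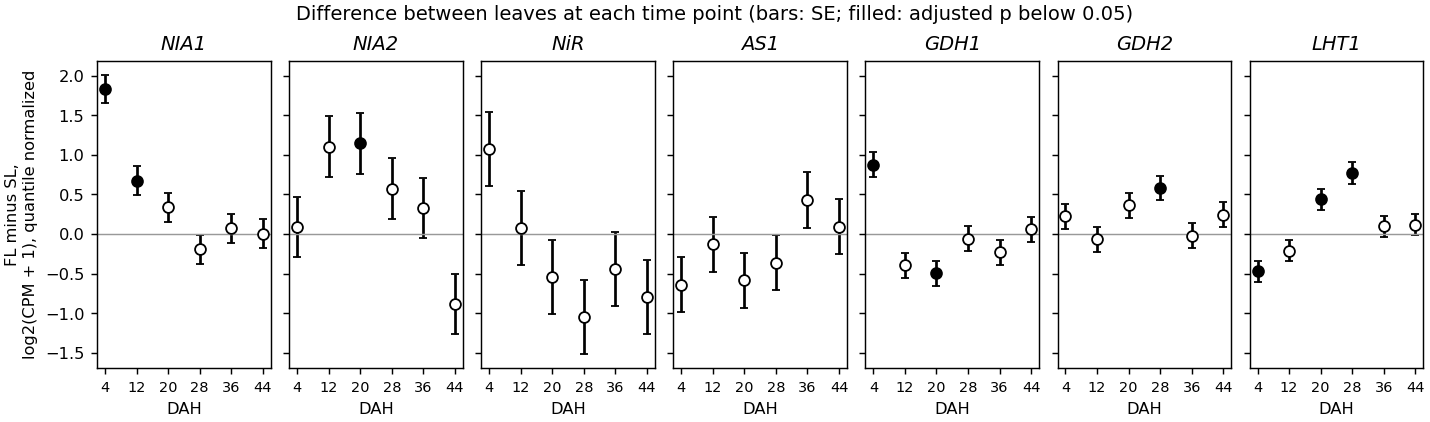
Difference FL minus SL of each tested gene at each time point, in log2 units of quantile-normalized log2(CPM + 1), with bars for the SE and filled symbols for an adjusted p below 0.05. NIA1 and GDH1 were higher in FL at 4 DAH (1.83 and 0.88), LHT1 was lower in FL at 4 DAH (-0.47) and higher at 28 DAH (0.77), and the differences of NiR had the widest SE (0.47).

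Relative to 4 DAH in FL, 2 of 7 genes were called at 12 DAH (of all genes tested 28.6%), 3 of 7 at 20 DAH (of all 45.5%), 5 of 7 at 28 DAH (of all 55.3%), 4 of 7 at 36 DAH (of all 31.4%), and 4 of 7 at 44 DAH (of all 57.4%). In SL, 5 of 7 were called at 12 DAH (of all 32.7%), 5 of 7 at 20 DAH (of all 43.7%), 5 of 7 at 28 DAH (of all 53%), 4 of 7 at 36 DAH (of all 34.6%), and 5 of 7 at 44 DAH (of all 56.2%). All of these comparisons within a leaf share the 3 libraries of 4 DAH. AS1 was the gene that fell at each of the 5 later time points in both leaves, and NIA1 was the gene that rose at each of them in both leaves.

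NIA1 encodes a nitrate reductase, the enzyme of the first step and nitrate reductase genes are classical nitrate-induced genes of plants. In FL, its level was 76.0, 79.7, and 66.4 CPM at 4 DAH, 132, 127, and 133 CPM at 12 DAH, and 168, 165, and 168 CPM at 20 DAH. In SL, it was 13.6, 26.7, and 21.9 CPM at 4 DAH, 79.4, 74.2, and 85.5 CPM at 12 DAH, and 141, 163, and 99.1 CPM at 20 DAH. The leaves did not overlap at these 3 time points, and SL at 4 DAH was the lowest group of all 12. NIA1 was higher in FL by 1.83 ± 0.18 (adjusted p = 9.34e-08) at 4 DAH and by 0.67 ± 0.18 (adjusted p = 0.0144) at 12 DAH, whereas the difference at 20 DAH was 0.34 ± 0.18 (adjusted p = 0.163). The call at 12 DAH was lost on leaving out 1 library, at 0.61 with an adjusted p of 0.0861 without FL 12 DAH replicate 3 and 0.61 with an adjusted p of 0.0754 without SL 12 DAH replicate 2.

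Later, the leaves came together. In FL, NIA1 was at 145, 187, and 171 CPM at 28 DAH, 129, 115, and 107 CPM at 36 DAH, and 223, 239.9, and 196 CPM at 44 DAH. The SL libraries were at 147, 231, and 223 CPM at 28 DAH, 88.5, 122, and 107 CPM at 36 DAH, and 209, 204, and 202 CPM at 44 DAH. The leaves overlapped at all 3 of these time points, and both were lower at 36 DAH than at 28 or 44 DAH. From 4 to 44 DAH, NIA1 rose by 1.60 ± 0.18 (adjusted p = 1.31e-08) in FL and by 3.43 ± 0.18 (adjusted p = 2.74e-15) in SL. The highest group, FL at 44 DAH (219 ± 22.2 CPM, SD, n = 3), was 10.6 times the lowest, SL at 4 DAH (20.7 ± 6.63 CPM). The group means spanned 1.60 log2 units in FL and 3.43 in SL, and the course differed between the leaves (adjusted p of the interaction 5.46e-05). Ordered by mean, neighbouring groups overlapped in 8 of 11 cases, and the breaks lay below FL at 20 DAH, below SL at 36 DAH, and above SL at 4 DAH.

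NIA2 is the second nitrate reductase gene of the set. In the reference assembly ASM3414082v1, it lies close to NIA1 on chromosome 8 with 1 annotated gene between them. Reads shared by such related genes may have been counted for either or for neither. In FL, NIA2 was at 76.9, 38.4, and 44.3 CPM at 4 DAH, 38.6, 118, and 89.5 CPM at 12 DAH, 93.9, 93.9, and 70.0 CPM at 20 DAH, and 89.8, 75.0, and 22.2 CPM at 28 DAH. In SL, it was at 46.9, 40.6, and 48.9 CPM, 35.9, 35.3, and 31.5 CPM, 32.7, 43.4, and 35.7 CPM, and 30.02, 41.3, and 39.5 CPM at the same time points. All 3 FL libraries lay above all 3 SL libraries at 12 and 20 DAH, and the FL libraries were spread widely at 12 and 28 DAH. The difference FL minus SL was 1.14 ± 0.38 (adjusted p = 0.0236) at 20 DAH, 1.103 ± 0.38 (adjusted p = 0.0527) at 12 DAH, and 0.57 ± 0.38 (adjusted p = 0.296) at 28 DAH. Without FL 28 DAH replicate 3, the lowest FL library of 28 DAH, the last was 1.21 with an adjusted p of 0.00811. This was the 1 library of 36 whose removal made the call. Over all 36 left out in turn, the difference ran from 0.18 to 1.21 (adjusted p between 0.00811 and 0.83). At 20 DAH, the call was lost without any of 4 libraries, at 1.09 with an adjusted p of 0.0657 without FL 20 DAH replicate 1, 1.05 with an adjusted p of 0.0782 without FL 20 DAH replicate 2, 1.06 with an adjusted p of 0.0765 without SL 20 DAH replicate 1, and 1.12 with an adjusted p of 0.0638 without SL 20 DAH replicate 3. At 12 DAH, edgeR on the recovered reads (1.27, adjusted p = 0.019) and DESeq2 (1.30, adjusted p = 0.00515) made a call that limma did not make. With each of the 36 libraries left out in turn, limma gave 0.79 to 1.58 at 12 DAH (adjusted p between 0.00471 and 0.282).

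Toward the end, the order of the leaves turned. NIA2 was at 52.5, 42.6, and 39.8 CPM in FL and 28.5, 30.7, and 48.8 CPM in SL at 36 DAH, and at 33.95, 36.6, and 18.8 CPM in FL and 56.6, 63.9, and 41.3 CPM in SL at 44 DAH. At 44 DAH all SL libraries lay above all FL libraries, but the difference of -0.88 ± 0.38 (adjusted p = 0.186) did not pass. NIA2 changed among the time points in FL, over 1.52 log2 units (adjusted p = 0.011), and the change in SL, over 0.67 log2 units, did not pass (adjusted p = 0.513). The call in FL was lost without FL 44 DAH replicate 3 (adjusted p = 0.0638). The leaves differed in their course with an adjusted p of 0.0447, and this call was lost on leaving out any one of 26 of the 36 libraries in turn (adjusted p between 0.00319 and 0.125 over all 36). The average over time was 0.39 ± 0.16 (adjusted p = 0.0387), lost for 18 of the 36 (0.00182 to 0.0748). All 11 neighbouring pairs of groups overlapped in the order by mean.

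Within a library, the ratio of NIA1 reads to NIA2 reads does not depend on how libraries were scaled. These ratios were chosen after the values were seen and were not tested. In SL, the ratio was 0.289, 0.657, and 0.447 at 4 DAH and 4.90, 5.59, and 5.64 at 28 DAH. In FL, it was 0.989, 2.07, and 1.50 at 4 DAH and 6.55, 6.56, and 10.4 at 44 DAH. Early on, at 4 DAH, the ratio was thus lower in every SL library than in any FL library, and at 44 DAH it was higher in every FL library than in any SL library, where it reached 3.20 to 4.88.

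NiR encodes ferredoxin-nitrite reductase, which converts the toxic product of nitrate reductase in the plastid. In FL, it was at 80.4, 85.0, and 61.6 CPM at 4 DAH, 33.8, 63.7, and 39.002 CPM at 12 DAH, 77.6, 84.7, and 50.9 CPM at 20 DAH, and 54.8, 92.9, and 69.3 CPM at 28 DAH. At 36 DAH it was at 422, 185, and 157 CPM, and at 44 DAH at 149.6, 226, and 113 CPM. All FL libraries of 36 and 44 DAH were thus above all FL libraries of the earlier time points. Relative to 4 DAH, NiR in FL rose by 1.67 ± 0.47 (adjusted p = 0.00681) at 36 DAH and by 1.09 ± 0.47 (adjusted p = 0.048) at 44 DAH. The first of these was 1.25 with an adjusted p of 0.064 without FL 36 DAH replicate 1, the highest library of the gene, and the second was lost on leaving out any one of 22 of the 36 libraries in turn (adjusted p between 0.0178 and 0.204 over all 36).

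In SL, NiR was at 29.2, 38.7, and 34.5 CPM at 4 DAH, 50.99, 35.7, and 40.9 CPM at 12 DAH, 135, 175, and 44.8 CPM at 20 DAH, and 54.7, 187, and 313 CPM at 28 DAH. It was at 298, 301, and 272 CPM at 36 DAH and at 197, 371, and 207 CPM at 44 DAH. The replicates of SL stood far apart at 20 and 28 DAH, with 1 library of each time point near the level of 12 DAH, and close together at 36 DAH. NiR in SL rose by 1.57 ± 0.47 (adjusted p = 0.00759) at 20 DAH, 2.08 ± 0.47 (adjusted p = 0.000458) at 28 DAH, 3.19 ± 0.47 (adjusted p = 4.67e-06) at 36 DAH, and 2.96 ± 0.47 (adjusted p = 4.11e-06) at 44 DAH. The rise at 20 DAH was 1.195 with an adjusted p of 0.0638 without SL 20 DAH replicate 2, which is also the library with 22.3 CPM of GluA1; the part of this grain transcript in the result was not tested. At 4 DAH all FL libraries of NiR were above all SL libraries, with a difference of 1.07 ± 0.47 (adjusted p = 0.134), and a limma fit to the 6 libraries of 4 DAH alone gave an adjusted p of 0.00219. In the fit to all 36 libraries, the difference FL minus SL passed at no time point, and at 28 DAH, where it was -1.05 ± 0.47 (adjusted p = 0.106), edgeR (-1.34, adjusted p = 0.0319) and DESeq2 (-1.31, adjusted p = 0.0264) made the call. Without SL 28 DAH replicate 1, the lowest SL library of that time point, the difference was -1.77 with an adjusted p of 0.00499. This was the 1 library of 36 whose removal made the call in limma. Over all 36 left out in turn, the difference ran from -1.77 to -0.47 (adjusted p between 0.00499 and 0.523). A difference in the course of NiR between the leaves did not pass (adjusted p of the interaction 0.128).

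**Figure D3:**
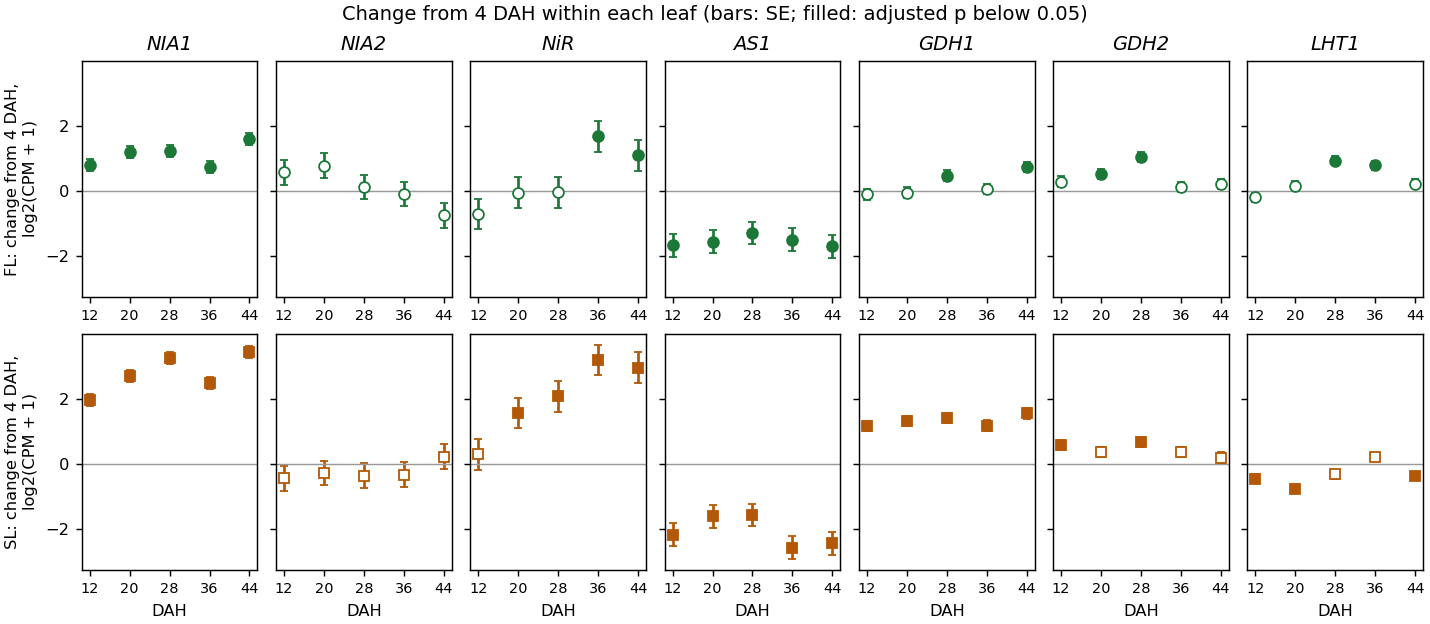
Change of each tested gene from 4 DAH, in log2 units of quantile-normalized log2(CPM + 1), in FL (circles, top) and SL (squares, bottom), with bars for the SE and filled symbols for an adjusted p below 0.05. By 44 DAH, NIA1 rose by 1.60 in FL and 3.43 in SL, NiR by 1.09 and 2.96, and AS1 changed by -1.70 and -2.43.

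The ratio of NiR reads to NIA1 reads, also chosen after the values were seen, fell, peaked at 36 DAH, and fell again. The FL libraries gave 1.06, 1.07, and 0.928 at 4 DAH, then 0.257, 0.502, and 0.293 at 12 DAH. They reached 3.28, 1.61, and 1.47 at 36 DAH. The SL libraries gave 2.15, 1.45, and 1.58 at 4 DAH, then 0.642, 0.481, and 0.479 at 12 DAH. They reached 3.37, 2.48, and 2.54 at 36 DAH. At 36 DAH, the ratio in each leaf was above that in every library of the same leaf at the other 5 time points.

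**Figure D4:**
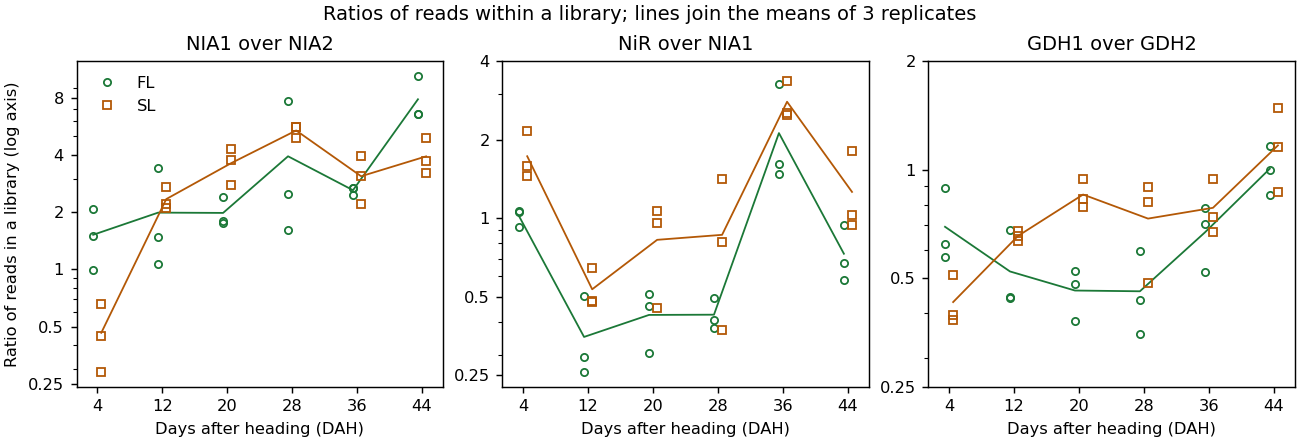
Ratio of the reads of 2 genes within each library (log axis) against days after heading, circles for FL and squares for SL, with lines through the means of 3 replicates. NIA1 over NIA2 was at 0.289 to 0.657 in SL at 4 DAH, NiR over NIA1 was at 1.47 to 3.37 in both leaves at 36 DAH, and GDH1 over GDH2 was at 0.350 to 0.595 in FL and 0.485 to 0.898 in SL at 28 DAH.

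Because 36 DAH was known from earlier results of these data to depart from its neighbours, it was compared with the mean of 28 and 44 DAH over both leaves. Of the 7 genes, 5 were called, 2 higher and 3 lower at 36 DAH (63.7% of all genes tested). NIA1 was lower, with a difference of -0.77 ± 0.11 (adjusted p = 7.12e-07), GDH1 with -0.42 ± 0.10 (0.000461), and GDH2 with -0.30 ± 0.10 (0.00694), whereas NiR was higher by 0.91 ± 0.29 (adjusted p = 0.0067) and LHT1 by 0.38 ± 0.08 (adjusted p = 0.000228). AS1 (-0.28 ± 0.21, adjusted p = 0.253) and NIA2 (-0.02 ± 0.23, adjusted p = 0.935) were not called.

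Genes of the circadian clock also changed over the course. Nitrate reductase transcripts of plants are known to cycle over the day, and LHY and GI are clock genes with a morning and a later peak. In FL, GI was at 484, 466, and 594 CPM at 28 DAH, 19.9, 21.6, and 24.7 CPM at 36 DAH, and 621, 561, and 617 CPM at 44 DAH. The SL libraries had 608, 597, and 454 CPM at 28 DAH, 13.4, 20.2, and 14.7 CPM at 36 DAH, and 478, 349, and 492 CPM at 44 DAH. LHY in FL was at 2000.2, 2049, and 2655 CPM, 4654, 4770.4, and 4482 CPM, and 1492, 1341, and 1609 CPM at these time points. LHY in SL was at 2232, 2718, and 1931 CPM, 3332, 4669.9, and 2304 CPM, and 1297, 667, and 1748 CPM. All FL libraries of 36 DAH were thus above those of both neighbours in LHY, whereas in SL they overlapped with those of 28 DAH. Of the 8 clock genes listed, 2 were higher and 4 lower at 36 DAH (63.7% of all genes tested called), with a median difference of -0.51. None of the 8 was at 0 in any library. Their summed level ranged from 4957 to 5216 CPM in FL and from 2608 to 5098 CPM in SL at 36 DAH. At 28 and 44 DAH it was 2249 to 3645 CPM in FL and 1274 to 3712 CPM in SL. Most of this sum at 36 DAH was LHY, at 4482 to 4770.4 CPM in FL and 2304 to 4669.9 CPM in SL, so it does not describe the 8 genes as a set. Before 28 DAH, the mean of GI was 9.39, 36.7, and 268 CPM in FL and 13.5, 35.2, and 258 CPM in SL at 4, 12, and 20 DAH. The mean of LHY went from 4791 CPM at 4 DAH to 1481 CPM at 44 DAH in FL, and from 3797 to 1238 CPM in SL. Levels of clock genes thus changed along the rise of NIA1 as well as at 36 DAH. The part of the clock genes in the levels of NIA1 and NiR was not tested. Without the libraries of 36 DAH, an alternative chosen after seeing the data, 7 of 7 genes changed over time in FL and 6 of 7 in SL, and 4 of 7 differed in their course between the leaves. These were the same counts as with 36 DAH, where 78.9%, 77.8%, and 20.2% of all genes were called. The other time points keep the rise of GI from 4 to 44 DAH, so these counts cannot show the part of the clock genes. On average over time, 2 of 7 differed between the leaves in place of 3, since NIA2 no longer passed (0.41, adjusted p = 0.0606).

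**Figure D5:**
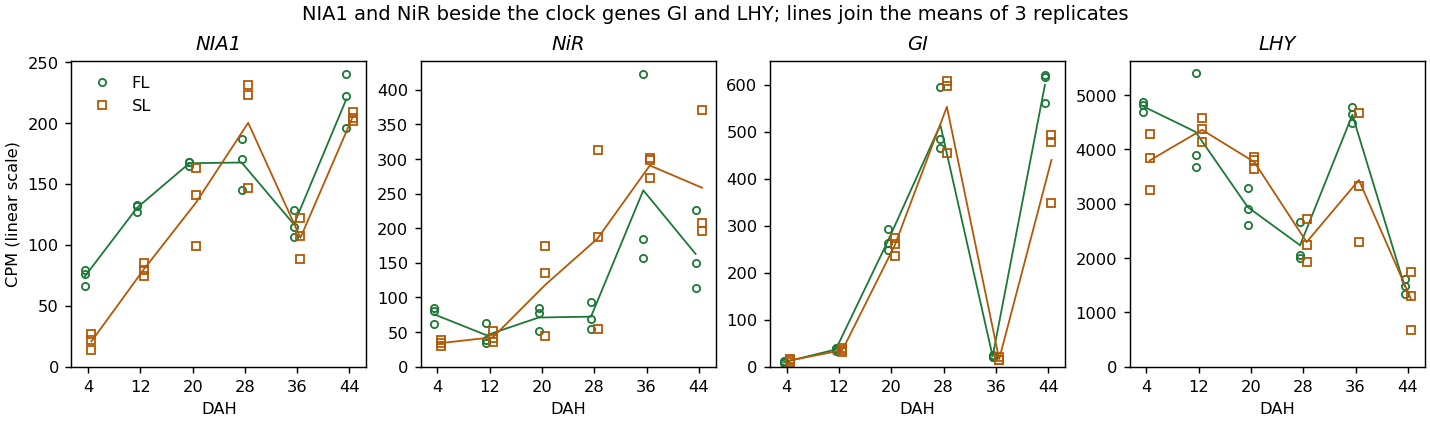
Levels of NIA1, NiR, and the clock genes GI and LHY in CPM (linear axes from 0, each with its own range) in each library against days after heading, circles for FL and squares for SL, with lines through the means of 3 replicates. GI was at 13.4 to 24.7 CPM in the 6 libraries of 36 DAH and at 349 CPM or more in the 12 libraries of 28 and 44 DAH.

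AS1 encodes an asparagine synthetase. Its level was 2.64, 4.61, and 6.79 CPM in FL and 6.95, 6.91, and 9.69 CPM in SL at 4 DAH. At 12 DAH, it was 0.548, 0.866, and 0.735 CPM in FL and 0.489, 0.374, and 1.58 CPM in SL. All libraries of 4 DAH were above all libraries of 12 DAH in either leaf, and at 4 DAH the SL libraries were just above the FL libraries. At the later time points it was between 0.379 and 1.96 CPM in FL and between 0.317 and 5.42 CPM in SL, where, at 5.42 CPM, SL 28 DAH replicate 1 stood apart from its replicates at 0.524 and 0.995 CPM. AS1 had 2 to 250 reads per library, with 3 libraries at 3 reads or fewer, so levels after 4 DAH rest on few reads.

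AS1 fell from 4 DAH by 1.66 ± 0.35 (adjusted p = 0.000625) at 12 DAH and by 1.70 ± 0.35 (adjusted p = 0.000135) at 44 DAH in FL. In SL its changes were -2.17 ± 0.35 (adjusted p = 1.88e-05) and -2.43 ± 0.35 (adjusted p = 9.33e-07). At this low level the pseudocount of 1 reduces the change, and under the alternatives the values reached -2.70 at 12 DAH and -3.09 at 44 DAH in FL, and -3.29 and -3.99 in SL. The leaves did not differ by the test at any time point, with values of FL minus SL from -0.64 to 0.43. No call of a change in AS1 was lost on leaving out a library. OS06G0265000, listed as another asparagine synthetase gene, had group means from 57.6 to 117 CPM in FL and from 64.8 to 106 CPM in SL. Its mean went from 80.2 CPM at 4 DAH to 117 CPM at 44 DAH in FL, and from 68.7 to 106 CPM in SL. The fall of AS1 therefore does not stand for both genes.

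GDH1 and GDH2 encode subunits of mitochondrial glutamate dehydrogenase. In FL, GDH1 was at 16.98, 13.6, and 14.7 CPM at 4 DAH, 14.8, 13.9, and 12.9 CPM at 20 DAH, and 24.05, 22.8, and 25.3 CPM at 44 DAH. In SL, it was at 7.83, 7.48, and 8.49 CPM at 4 DAH, 18.2, 15.7, and 25.4 CPM at 20 DAH, and 24.02, 27.6, and 18.8 CPM at 44 DAH. At 4 DAH, all SL libraries were below all FL libraries, at 20 DAH all were above, and at 44 DAH the leaves overlapped. GDH1 was higher in FL at 4 DAH by 0.88 ± 0.16 (adjusted p = 0.000357) and lower in FL at 20 DAH, where the difference was -0.50 ± 0.16 (adjusted p = 0.0191). The call at 20 DAH was lost on leaving out 1 library, at -0.46 with an adjusted p of 0.0641 without FL 20 DAH replicate 3 and -0.31 with an adjusted p of 0.173 without SL 20 DAH replicate 3.

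At the other time points, GDH1 was at 16.9, 11.7, and 11.8 CPM in FL and 15.8, 18.996, and 19.6 CPM in SL at 12 DAH, 17.97, 18.1, and 24.3 CPM in FL and 20.5, 19.7, and 23.7 CPM in SL at 28 DAH, and 11.5, 16.6, and 16.7 CPM in FL and 15.996, 18.96, and 18.4 CPM in SL at 36 DAH. The leaves overlapped at each of these. In SL, GDH1 rose by 1.17 ± 0.16 (adjusted p = 1.85e-06) as early as 12 DAH and by 1.55 ± 0.16 (adjusted p = 2.32e-09) at 44 DAH, and it was called at each of the 5 later time points. In FL, it rose by 0.47 ± 0.16 (adjusted p = 0.0141) at 28 DAH and by 0.74 ± 0.16 (adjusted p = 0.00025) at 44 DAH, and the changes at 12, 20, and 36 DAH did not pass. The rise at 28 DAH in FL was 0.39 with an adjusted p of 0.0684 without FL 4 DAH replicate 2 and 0.36 with an adjusted p of 0.0811 without FL 28 DAH replicate 3. The course differed between the leaves (adjusted p of the interaction 0.00104). SL at 4 DAH (7.93 ± 0.511 CPM, SD, n = 3) was the 1 group that did not overlap with its neighbour in the order by mean.

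GDH2 had its highest group mean at 28 DAH in both leaves, but in SL this mean was raised by 1 library, replicate 1. In FL, it was at 19.1, 23.8, and 23.7 CPM at 4 DAH, 28.2, 28.9, and 33.9 CPM at 20 DAH, 51.3, 41.7, and 40.9 CPM at 28 DAH, and 22.2, 21.3, and 23.6 CPM at 36 DAH. In SL, it was at 15.3, 19.6, and 21.5 CPM, 22.02, 19.9, and 26.9 CPM, 42.4, 24.3, and 26.4 CPM, and 23.9, 25.7, and 19.5 CPM at these time points. At 28 DAH, 2 SL libraries were below every FL library and 1, replicate 1, was among them. At 12 and 44 DAH, GDH2 was between 20.6 and 26.8 CPM in FL and between 18.7 and 29.9 CPM in SL. The SL libraries of 12 DAH were at 24.9, 28.1, and 29.9 CPM, near SL 28 DAH replicates 2 and 3. From 4 to 12 DAH, GDH2 had already risen in SL by 0.58 ± 0.16 (adjusted p = 0.00458), and the change in FL, 0.29 ± 0.16 (adjusted p = 0.169), did not pass. From 4 to 28 DAH, GDH2 rose by 1.05 ± 0.16 (adjusted p = 1.75e-06) in FL and by 0.69 ± 0.16 (adjusted p = 0.000472) in SL. It was higher in FL by 0.58 ± 0.16 (adjusted p = 0.00712) at 28 DAH and by 0.22 ± 0.06 (adjusted p = 0.00528) on average over time. At 28 DAH, the difference was 0.45 with an adjusted p of 0.0713 without FL 28 DAH replicate 1 and 0.45 with an adjusted p of 0.0596 without SL 28 DAH replicate 2, and a fit to the 6 libraries of 28 DAH alone gave an adjusted p of 0.117. The interaction did not pass (adjusted p = 0.158).

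GDH3, the third gene of the family in the set, had 0 to 8 reads per library, with no read in 9 libraries and 3 reads or fewer in 28 of the 36. Its highest level was 0.791 CPM, in 1 library of FL at 44 DAH, and no difference was detectable at this depth. The ratio of GDH1 to GDH2 reads, chosen after the values were seen, was 0.890, 0.572, and 0.621 in FL and 0.511, 0.382, and 0.395 in SL at 4 DAH. At 20 DAH it was 0.524, 0.482, and 0.380 in FL and 0.828, 0.788, and 0.944 in SL. All SL libraries were thus below all FL libraries at 4 DAH and above them at 20 DAH. OS01G0558200, listed as another glutamate dehydrogenase gene, had group means from 84.1 to 101 CPM in FL and from 76.8 to 113 CPM in SL. The values of GDH1 and GDH2 therefore describe these genes alone.

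LHT1 had its highest levels at 28 and 36 DAH in FL and at 36 DAH in SL. In FL, it was at 201, 195, and 185 CPM at 4 DAH, 180.0, 159, and 162 CPM at 12 DAH, 233, 204, and 167 CPM at 20 DAH, and 301, 344, and 359 CPM at 28 DAH. The SL libraries had 233, 228, and 245 CPM, 200.1, 168, and 199.6 CPM, 182, 130.4, and 139.8 CPM, and 214, 206, and 198 CPM at the same time points. The SL libraries were above all FL libraries at 4 DAH, and at 28 DAH the FL libraries were above all SL libraries by a wide gap. At 36 DAH, the levels were 277, 324, and 328 CPM in FL and 279, 302, and 233 CPM in SL, and at 44 DAH 215, 211, and 206 CPM and 207, 140.2, and 214 CPM. The leaves overlapped at both.

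LHT1 was higher in FL by 0.77 ± 0.14 (adjusted p = 0.000144) at 28 DAH and by 0.44 ± 0.14 (adjusted p = 0.0153) at 20 DAH, and lower in FL at 4 DAH, with a difference of -0.47 ± 0.14 (adjusted p = 0.0177). At 28 DAH the call was kept on leaving out any library, whereas at 20 DAH it was lost without any of 4 libraries, at 0.31 with an adjusted p of 0.117 without FL 20 DAH replicate 1, 0.41 with an adjusted p of 0.0545 without FL 20 DAH replicate 2, 0.34 with an adjusted p of 0.0952 without SL 20 DAH replicate 2, and 0.41 with an adjusted p of 0.0568 without SL 20 DAH replicate 3. Of these, FL 20 DAH replicate 2 and SL 20 DAH replicate 2 are the 2 libraries with GluA1 above 0.540 CPM, and the part of this transcript in the result was not tested. The difference at 4 DAH moved to -0.28 without quantile normalization and -0.30 with edgeR, and neither passed (adjusted p = 0.194 and 0.138), and it was lost on leaving out FL 4 DAH replicate 2 or 3 or SL 4 DAH replicate 1 or 3 (adjusted p = 0.0566, 0.074, 0.0548, and 0.0774).

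Over time, LHT1 in FL rose by 0.93 ± 0.14 (adjusted p = 1.21e-06) at 28 DAH and by 0.78 ± 0.14 (adjusted p = 4.86e-05) at 36 DAH from 4 DAH. In SL, it fell by 0.75 ± 0.14 (adjusted p = 4.78e-05) at 20 DAH, and the change at 36 DAH was 0.21 ± 0.14 (adjusted p = 0.231). The smaller falls in SL at 12 DAH, with a change of -0.45 ± 0.14 (adjusted p = 0.0109), and at 44 DAH, with -0.37 ± 0.14 (adjusted p = 0.0227), were each lost on leaving out a library. The former was -0.36 with an adjusted p of 0.0771 without SL 12 DAH replicate 2. The latter was -0.19 with an adjusted p of 0.242 without SL 44 DAH replicate 2, -0.36 with an adjusted p of 0.0508 without SL 4 DAH replicate 1, and -0.33 with an adjusted p of 0.0726 without SL 4 DAH replicate 3. The course differed between the leaves (adjusted p of the interaction 0.000613).

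Lists of other genes of the same pathways were set beside the 8, and a gene that no annotation at hand names is given by its identifier alone. Of 10 tested genes listed for nitrate transport and response, 2 were higher and 2 lower in FL on average (48.8% of all genes called), and from 4 to 44 DAH 4 rose and 4 fell in FL (57.4% of all), and 5 rose and 3 fell in SL (56.2% of all). The median change to 44 DAH was -0.17 in FL and 0.49 in SL, against 0.00073 and -0.0096 over all genes tested. NIGT1, a nitrate-inducible transcriptional repressor of the GARP family, rose by 3.79 ± 0.29 (adjusted p = 5.76e-12) in FL and by 4.08 ± 0.29 (adjusted p = 1.57e-12) in SL. NLP3, a NIN-like protein, a family of nitrate-responsive transcription factors, changed by -1.32 ± 0.13 (adjusted p = 6.1e-10) in FL and by -1.40 ± 0.13 (adjusted p = 2.28e-10) in SL. NLP1 of the same family was lower in FL on average, with a difference of -0.23 ± 0.07 (adjusted p = 0.00772). OS02G0770800, listed as another nitrate reductase gene, was at 54.1 ± 12.5 CPM in FL and 20.8 ± 8.74 CPM in SL at 44 DAH (SD, n = 3). It had 0 to 1 reads in each of the 6 libraries of 4 DAH and was higher in FL on average (1.23 ± 0.11, adjusted p = 1.18e-09). NIA1 and NIA2 therefore do not stand for all the nitrate reductase genes listed.

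The other named extremes of this list were OS09G0549450, higher in FL on average (0.31 ± 0.10, adjusted p = 0.00793), OS03G0235900, lower in FL (-0.24 ± 0.05, adjusted p = 0.00039), and OS08G0155400, which fell to 44 DAH in FL (-1.28 ± 0.19, adjusted p = 1.82e-06) and SL (-0.90 ± 0.19, adjusted p = 0.000223). Of 12 tested genes listed for ammonium and amide metabolism, 1 was higher and 4 lower in FL on average, and to 44 DAH 5 rose and 2 fell in FL, and 7 rose and 1 fell in SL, against 48.8%, 57.4%, and 56.2% of all genes called. The median change was 0.25 in FL and 0.47 in SL. Fd-GOGAT, the ferredoxin-dependent glutamate synthase of leaves, was higher in FL on average (0.24 ± 0.08, adjusted p = 0.0186). The NADH-dependent glutamate synthase gene OS05G0555600 (GLT2) was lower (-0.76 ± 0.08, adjusted p = 1.23e-08), and it rose to 44 DAH in FL (1.60 ± 0.20, adjusted p = 6.55e-08). GS2, the plastid glutamine synthetase, fell to 44 DAH in FL (-0.72 ± 0.09, adjusted p = 9.04e-08) and SL (-0.42 ± 0.09, adjusted p = 0.000228), and GS1;2, a cytosolic one, fell in FL (-0.43 ± 0.15, adjusted p = 0.0132).

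OS01G0681900 was lower in FL on average (-0.61 ± 0.10, adjusted p = 2.36e-05) and rose to 44 DAH in FL (1.61 ± 0.26, adjusted p = 4.13e-06) and SL (1.67 ± 0.26, adjusted p = 2.49e-06), and OS04G0650700 rose in SL (2.16 ± 0.17, adjusted p = 7.43e-12). Of 7 genes listed as amino acid permeases, all tested, 2 were higher and 5 lower in FL on average (48.8% of all genes called), with a median of -0.35 against -0.0072 over all genes. LHT1, in comparison, had an average of 0.12 ± 0.06 (adjusted p = 0.0658). OS05G0424000 was lower in FL (-0.86 ± 0.05, adjusted p = 1.84e-13) and rose to 44 DAH in FL (3.54 ± 0.12, adjusted p = 1.31e-19) and SL (2.24 ± 0.12, adjusted p = 4.25e-15). OS12G0194900 was lower in FL (-0.65 ± 0.07, adjusted p = 5.85e-09), and OS07G0134000 was higher in FL (0.29 ± 0.07, adjusted p = 0.00155) and fell to 44 DAH in FL (-1.65 ± 0.18, adjusted p = 3.88e-09) and SL (-1.24 ± 0.18, adjusted p = 6.69e-07). OS06G0556000 was higher in FL (0.20 ± 0.04, adjusted p = 6.67e-05) and fell in FL (-0.49 ± 0.09, adjusted p = 4.49e-05), OS01G0882800 rose in FL (1.66 ± 0.26, adjusted p = 3.38e-06), and OS01G0878700 rose in SL (1.96 ± 0.21, adjusted p = 3.91e-09).

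Across the 36 libraries, the log2 level of NIA1 had a Pearson correlation of 0.771 with GDH1, 0.567 with NiR, and -0.717 with AS1. These libraries share their time points and leaves, so the correlations describe the course of the groups and carry no test. For the deviations of each library from its group mean, the correlation of NIA1 was 0.708 with NiR, -0.250 with GDH1, and -0.386 with AS1, and that with NIA2 was 0.272. Of the 21 pairs of tested members, NIA1 with NiR had the highest correlation of deviations. Both genes were high in SL 28 DAH replicates 2 and 3 and low in replicate 1, and both were low in SL 20 DAH replicate 3. The deviations of NiR and GDH2 had a correlation of -0.549.

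The 2 tested genes whose 36 log2 values were most like those of each member, members left out, were found by the Pearson correlation over 22050 genes. For NIA1 they were OS02G0704900, listed in the reference as the inorganic pyrophosphatase gene IPP (0.939), and OS11G0153600 (0.905), and for NiR they were OS04G0434800, the ascorbate peroxidase gene APX7 (0.915), and OS05G0455400 (0.866). For NIA2 they were OS06G0719600 (0.895) and OS10G0564200 (0.878), and for AS1 OS01G0944700 (0.860) and OS02G0637000 (0.839). For GDH1 they were OS01G0589300 (0.889) and OS05G0513900 (0.882), for GDH2 OS05G0574600 (0.831) and OS03G0191400 (0.823), and for LHT1 OS11G0455500 (0.890) and OS03G0815200 (0.846).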

How the data were processed

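RNA from the middle parts of flag leaves and second leaves was sequenced from stranded TruSeq libraries, 3 replicates per leaf at each of 6 time points. According to the study's methods and the submitters' processing notes, reads were prepared with CASAVA 1.8.2, trimmed with cutadapt 1.2.1, aligned to IRGSP-1.0 with TopHat2 2.0.10 and Bowtie, and counted with HTSeq 0.6.1. The strand setting of the counting is not given in the sources used here. The deposited signal values are CPM on library sizes that the authors scaled with edgeR's trimmed mean of M-values (TMM) factors, on a linear scale. All values were whole reads divided by a library factor, within 0.01 reads (100% of values), and the reads were recovered. The deposited table held 36 columns of libraries, and all were used.

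Values were taken as log2(CPM + 1) and quantile-normalized, as the study's methods describe, and 22057 genes at 1 or more in at least 3 libraries were tested with limma 3.58.1 (trended prior, R 4.3.3) in 1 fit to all 12 groups. Benjamini-Hochberg adjustment ran over all tested genes within each of 21 comparisons. For a change among time points and for the interaction, the value given is the range of the group differences tested by the F-test. The code was tested on simulated data. Alternatives were a pseudocount of 0.1, no quantile normalization, no filter, a fit to only the libraries compared, a replicate block, edgeR 4.0.16 and DESeq2 1.42.0 on the recovered reads, each library left out in turn, and, chosen after seeing the data, leaving out 36 DAH. Tables and plots were made with Python 3.11.15, numpy 2.4.6, pandas 2.3.3, and matplotlib 3.10.9.

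The 8 genes and the lists were chosen with earlier results of these data known. Genes named in the text are the 8, the 2 most alike to each by Pearson correlation, and, of the pathway lists, the 2 called genes with the largest value in each direction on average between the leaves and from 4 to 44 DAH in each leaf. OS06G0265000 and OS01G0558200 were added to these after the values were seen, to stand beside AS1 and the glutamate dehydrogenase genes. The reference gene table (ASM3414082v1, used for names and neighbours only) names NIA1, GDH1, GDH2, and GDH3. The names NIA2, NiR, AS1, and LHT1 came with the choice of genes. Of 38 pathway genes listed, 3 were dropped because an annotation contradicted their name, 15 are named by the reference, and the others are given by identifier. Their place in a list rests on the identifier alone.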

Additional observations from a re-analysis of the deposited data

Results flagged for a closer look

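For 4 of the 7 tested genes, the course in FL was not that in SL by the interaction test of limma. The adjusted p was 5.46e-05 for NIA1, whose rise to 44 DAH was 1.60 in FL and 3.43 in SL on the log2 scale. It was 0.000613 for LHT1, which rose by 0.93 in FL from 4 to 28 DAH, with a value of -0.31 in SL that did not pass (adjusted p = 0.0547). For GDH1 it was 0.00104, with a rise of 1.17 in SL from 4 to 12 DAH and a value of -0.11 in FL that did not pass (adjusted p = 0.665). For NIA2 it was 0.0447, with values from 4 to 44 DAH of -0.74 in FL (adjusted p = 0.099) and 0.23 in SL (0.633), neither of which passed. The calls for NIA1, LHT1, and GDH1 were kept whichever of the 36 libraries was left out, whereas that for NIA2 was lost for 26 of them. Of all genes tested, 20.2% were called by the same interaction test.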

How the results depend on the processing

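Of 76 differences and changes of the 7 genes that were called, 67 stayed past the threshold under every alternative other than leaving out a library. Whichever of the 36 libraries was left out, 60 did so. No call with a direction reversed under any alternative run. The calls by an F-test, among time points or for the interaction, are given as a range and have no direction to keep. The number of the 7 genes called between the leaves at 12 DAH was 2 in place of 1 without quantile normalization, with the replicate block, with edgeR, and with DESeq2, and 0 to 3 on leaving out a library. At 20 DAH it was 1 to 4 in place of 3, and at 28 DAH 1 to 3 in place of 2 on leaving out a library, and 1 with only the 6 libraries compared. That fit pools no spread with the other time points. It called 4978 of all genes at 4 DAH in place of 3108, 2035 at 28 DAH in place of 5229, 0 at 36 DAH in place of 2409, and 0 at 44 DAH in place of 838. At an unadjusted p under 0.05 it had 4340 genes at 36 DAH and 2350 at 44 DAH, and edgeR called 1956 and 683 and DESeq2 2528 and 1148 there.

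Same-numbered FL and SL libraries deviated together only in part, with a mean correlation of 0.173 against -0.0888 for other numbers, 11 of 18 pairs over 0.1, and 10 of 18 best with their own number, and they were not treated as pairs. With the replicate block, 7 calls were gained and 0 lost, among them NiR at 4 DAH (adjusted p = 0.0432) and at 28 DAH (0.035) and the interaction of NiR (0.0372) and GDH2 (0.0386). For the average over time, LHT1 was called without quantile normalization (adjusted p = 0.0123), with edgeR (0.0139), and with DESeq2 (0.00409), and NIA2 was lost without the filter on low values (0.0639). NIA2 was also lost in the interaction without the filter (0.0814) and in the change within FL with only the libraries of FL (0.0692). From 4 DAH, NiR at 44 DAH in FL was lost without quantile normalization (0.0508) and without the filter (0.0759), GDH1 at 28 DAH in FL without quantile normalization (0.0506), LHT1 at 12 DAH in SL without quantile normalization (0.0791) and with edgeR (0.0509), and LHT1 at 44 DAH in SL with only the libraries of SL (0.0538). GDH2 from 4 to 20 DAH in FL was lost without FL 20 DAH replicate 3 (0.0528). Without SL 28 DAH replicate 1, NiR was called on average (-0.40, adjusted p = 0.0416) and in the interaction (0.0155). The cause of these changes was not tested.

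The depth limits AS1, at 2 to 250 reads per library, and GDH3, at 0 to 8, whose levels between groups could not be compared.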

Other observations

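The spread between replicates was uneven among the 7 genes. The residual standard deviation of the fit was 0.620 log2 units for NiR and 0.505 for NIA2, and 97.7% and 95.9% of all tested genes had a lower one. It was 0.453 for AS1 (94.4% of genes lower), 0.234 for NIA1 (58.1%), 0.197 for GDH1 (41.1%), 0.194 for GDH2 (39.8%), and 0.171 for LHT1 (29.3%). Among the 1000 genes nearest in level, a lower one was found for 99.6% with NiR, 98.2% with NIA2, 88.2% with AS1, and 81.4% with NIA1. The share was 59.2% with GDH2, 53.5% with LHT1, and 52.2% with GDH1. Of the nitrate reduction genes, NIA1 was thus measured with the least spread, and a difference in NiR between the leaves had to be larger than one in NIA1 to pass the same threshold.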
